A study of Mus musculus with 9 samples.

Results

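The clustered protocadherins are a family of cadherin-like adhesion genes, most abundant in neurons, that lie in 3 neighbouring arrays called alpha, beta and gamma. Members were chosen by symbol, as every gene named Pcdha, Pcdhac, Pcdhb, Pcdhga, Pcdhgb or Pcdhgc with a number and listed above 0 TPM (an abundance scaled for transcript length, in which each library adds up to the same total) in at least 3 of 9 libraries. All 58 symbols of that form were kept, out of 23412 symbols in the table: 14 alpha, 22 beta and 22 gamma genes. Of these, 56 reached 1 TPM in at least 3 libraries and were tested; Pcdha8 and Pcdhb1 did not. Of the 56, 52 were at 1 TPM or more in every library.

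The study measured bulk RNA from hippocampus of wild-type (WT) mice at postnatal day 21. Pups of 1 group, PFOS P1-7, received perfluorooctane sulfonate (PFOS, a persistent fluorinated surfactant) through the milk on postnatal days 1 to 7. A second group, PFOS P8-14, received it on days 8 to 14, and a sham group served as control; each group had 3 samples. Dams were dosed at 1 mg/kg each day by gavage during the exposure window, so pups were exposed through milk, and the study asked which window of early life is sensitive for brain development. The labels give no strain, sex or litter and do not say whether a sample is 1 animal or a pool. For this reason the p-values below cover only sample-to-sample spread, which may be technical.

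Each alpha and gamma gene joins its own first exon to constant exons at the end of its cluster, so its proteins differ outside the cell and share their inner end, while beta genes are single exons. Individual neurons switch on a few alpha, beta and gamma genes from promoters chosen largely at random, together with C-type genes, and the proteins bind like to like across membranes. In mice this cell-surface code is known for self-avoidance of branches from the same neuron, for axon tiling and for the survival of interneurons.

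In the RefSeq annotation of mm10 the 3 clusters lie in a row on chromosome 18, plus strand. The alpha genes span positions 36930285 to 37188897 (258.6 kb), the beta genes 37264998 to 37521419 (256.4 kb) and the gamma genes 37661775 to 37841873 (180.1 kb). A gap of 76.1 kb separates alpha from beta, and one of 140.4 kb separates beta from gamma. In the GENCODE transcripts, which hold 57 of the 58 members and lack Pcdha10, each alpha and gamma member found has 4 exons and each beta member has 1. Among these, exons shared with other members make up a median of 53.5% of the bases of an alpha transcript (range 48.6 to 54.9%) and 44.9% of a gamma transcript (41.7 to 45.9%). The median is 0% for beta transcripts, and the highest is 9.67%, in Pcdhb21. Reads from the constant exons can be divided among the members of alpha or of gamma only by estimation. Levels of single alpha and gamma genes are therefore uncertain. Cluster sums depend on that division far less, through differences in transcript length. Lengths ran from 5206 to 5888 bases in alpha and from 4615 to 5080 bases in gamma. The member Pcdhgb8 is annotated in RefSeq as a transcribed pseudogene.

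The deposited values keep no depth, so the number of reads behind a value is unknown. Markers of hippocampal neurons were present in every library. The summed level of 7 dentate granule neuron markers was 252 to 302 TPM in PFOS P1-7, 242 to 283 TPM in PFOS P8-14 and 195 to 286 TPM in control, and that of 6 pyramidal neuron markers was 679 to 745 TPM in PFOS P1-7, 611 to 756 TPM in PFOS P8-14 and 586 to 651 TPM in control. The summed level of 8 general neuron markers was 6820 to 7498 TPM in PFOS P1-7, 6645 to 7568 TPM in PFOS P8-14 and 5515 to 7192 TPM in control. Markers of the choroid plexus, a tissue beside the hippocampus, varied within every group: the summed level of 10 genes was 180.4 to 12913 TPM in PFOS P1-7, 266 to 11028 TPM in PFOS P8-14 and 155 to 11010 TPM in control. It was above 10000 TPM in 2 of 3 PFOS P1-7 libraries, 2 of 3 PFOS P8-14 libraries and 1 of 3 control libraries, and the 10 markers had median log2 differences of 1.65 and 1.57 against control, with 0 called by limma. With the choroid plexus score as a covariate, the median log2 difference over protocadherin members was 0.32 in PFOS P1-7 and 0.28 in PFOS P8-14, against 0.23 and 0.26 without it. Control replicates 2 and 3 stood apart from the other 7 libraries. Across tested genes their deviation from the gene means followed transcript length with a Spearman rho of -0.40 and -0.50, against 0.19 in control replicate 1 and -0.19 to 0.46 in the 6 exposed libraries. In 3833 of 14336 tested genes, 26.7%, both of these control libraries were below all other libraries. For this reason the family medians and cluster sums against control are given below with and without them. Listed genes outside the family are given with all control libraries unless stated.

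Of the 5 C-type genes, which use a C-type first exon near the constant exons, Pcdhgc5, Pcdhgc3 and Pcdhac2 had the highest levels of the family, while Pcdhgc4 and Pcdhac1 lay within the range of the variable genes. Pcdhgc5 had 117, 121 and 104 TPM in the 3 PFOS P1-7 replicates, 113, 104 and 116 TPM in PFOS P8-14, and 114, 77.8 and 79.5 TPM in control. Pcdhgc3, which in mouse cortex promotes dendrite branching, had 105, 109 and 105 TPM in PFOS P1-7, 119, 95.8 and 101 TPM in PFOS P8-14, and 111, 76.7 and 78.8 TPM in control. For both genes control replicate 1 lay among the exposed libraries while control replicates 2 and 3 were the lowest. The ratio of Pcdhgc5 to Pcdhgc3 was 0.994 to 1.11 in PFOS P1-7, 0.945 to 1.15 in PFOS P8-14 and 1.01 to 1.03 in control, so neither gene led in all libraries.

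Pcdhac2, needed in mice for the tiling of serotonergic axons, was the highest alpha gene. It had 38.4, 41.2 and 35.5 TPM in PFOS P1-7, 40.9, 36.3 and 39.9 TPM in PFOS P8-14, and 40.7, 23.2 and 25.9 TPM in control. The markers of serotonergic cell bodies Tph2, Slc6a4 and Fev summed to 0.85 to 1.52 TPM in PFOS P1-7, 0.84 to 1.40 TPM in PFOS P8-14 and 1.27 to 1.67 TPM in control, near 0 in each library. Pcdhgc4, the gamma isoform required for neuron survival in mice, had 17.9, 20.8 and 14.5 TPM in PFOS P1-7, 18.3, 18.3 and 15.9 TPM in PFOS P8-14, and 20.0, 10.5 and 12.6 TPM in control. Pcdhac1 was the lowest of the 5, with 4.03, 5.04 and 4.59 TPM in PFOS P1-7, 4.22, 3.78 and 4.81 TPM in PFOS P8-14, and 4.47, 2.37 and 3.54 TPM in control. In all 3 of these genes control replicate 1 lay among the exposed libraries, control replicate 2 was the lowest of the 9, and the groups overlapped.

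Among the variable alpha genes, which encode the alternative outer domains, the highest mean over the 9 libraries was 8.84 TPM for Pcdha12, then 6.92 TPM for Pcdha4 and 5.51 TPM for Pcdha5. Pcdha12 had 7.34, 11.4 and 9.68 TPM in PFOS P1-7, 8.04, 8.41 and 8.47 TPM in PFOS P8-14, and 11.4, 8.62 and 6.28 TPM in control, and was the highest variable alpha gene in every library. Pcdha8 was the lowest, at 0.05 to 0.35 TPM in PFOS P1-7, 0.11 to 0.45 TPM in PFOS P8-14 and 0.05 to 0.15 TPM in control.

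Beta genes, whose proteins lack the inner domain shared within alpha and within gamma, ranged from 11.2 TPM for Pcdhb9, 9.25 TPM for Pcdhb17 and 7.70 TPM for Pcdhb7 (means over 9 libraries) down to 0.0544 TPM for Pcdhb1. Pcdhb9 had 11.01, 11.9 and 12.4 TPM in PFOS P1-7, 12.5, 11.6 and 11.8 TPM in PFOS P8-14, and 12.6, 9.84 and 7.66 TPM in control. Pcdhb1 was listed above 0 in 4 libraries, 1 of PFOS P1-7 and all 3 of PFOS P8-14, at 0.06 to 0.25 TPM, and at 0 in the 3 control libraries; with no depth known, no fold is given. The most variable tested members, chosen after their values were seen, were the low beta genes Pcdhb8, Pcdhb2 and Pcdhb21, with coefficients of variation over the 9 libraries of 42.8%, 42.2% and 40.5%, and the least variable was Pcdhb20 at 10.01%.

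Most gamma genes were higher than most variable alpha and beta genes. In the A class Pcdhga11 averaged 23.5 TPM over the 9 libraries, Pcdhga3 22.1 TPM and Pcdhga12 15.6 TPM, and the lowest was Pcdhga9 at 6.74 TPM. In the B class Pcdhgb6 averaged 13.5 TPM, Pcdhgb1 11.03 TPM and Pcdhgb2 8.58 TPM, and the pseudogene Pcdhgb8 was lowest at 0.974 TPM. Pcdhgb8 had 0.52, 1.67 and 0.65 TPM in PFOS P1-7, 1.22, 0.92 and 1.21 TPM in PFOS P8-14, and 0.88, 0.80 and 0.90 TPM in control; it reached 1 TPM in exposed libraries alone, so it entered the test through them. The ranges of Pcdhga11 and Pcdhga3 over the 9 libraries, 18.2 to 29.8 and 14.9 to 28.2 TPM, overlapped. Pcdhga11 was above Pcdhga3 in 3 of 3 PFOS P1-7 libraries, 0 of 3 PFOS P8-14 libraries and 3 of 3 control libraries, an order that was noticed in the data and not tested.

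**Figure D1:**
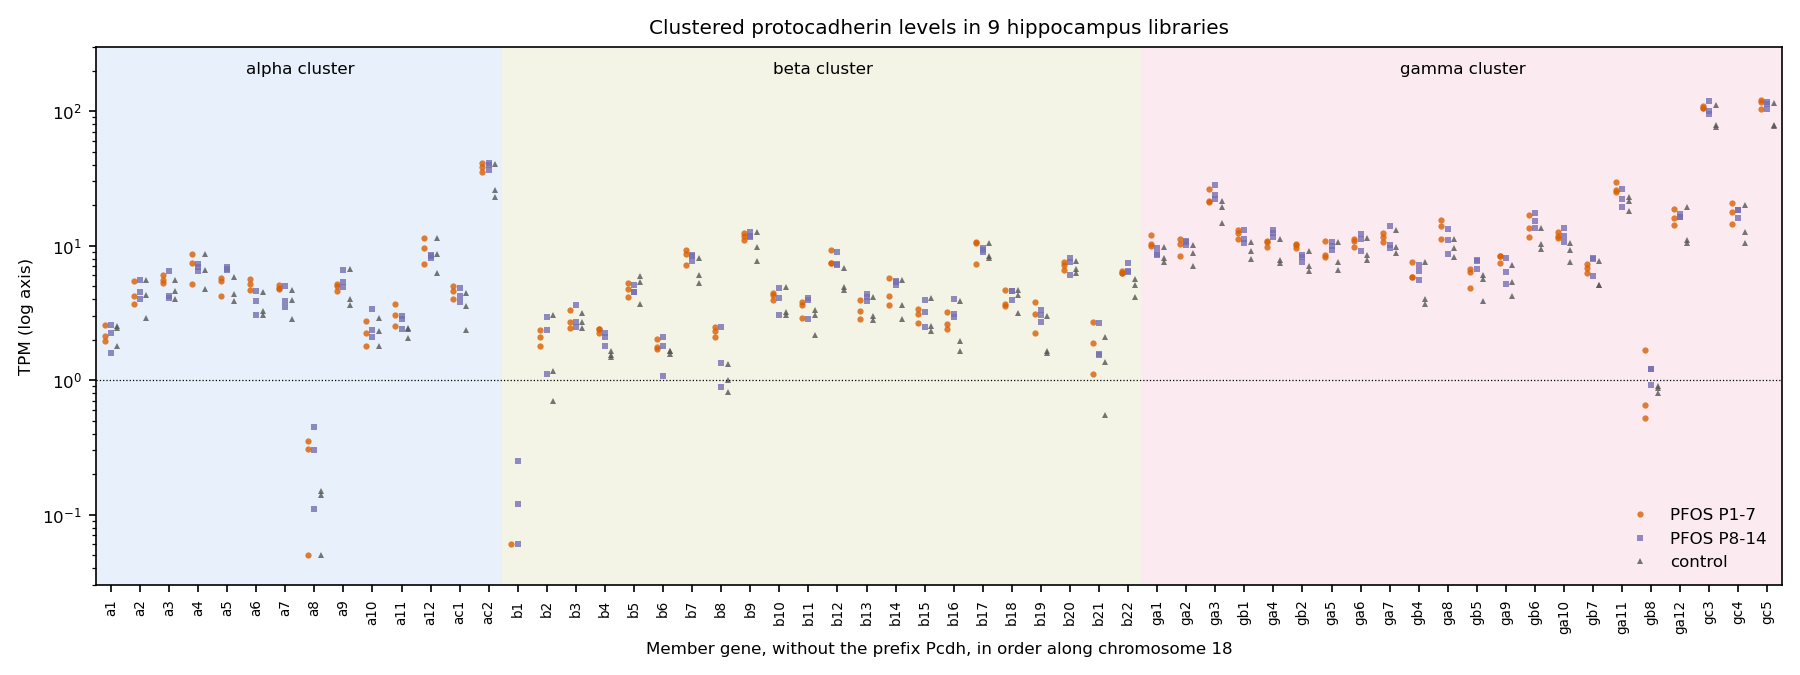
Level of each of the 58 members in TPM (log axis) in genomic order; each mark is a library, coloured by group, the dotted line is 1 TPM, and the 5 Pcdhb1 values listed at 0 are not drawn. The C-type genes Pcdhac2, Pcdhgc3 and Pcdhgc5 stand above their clusters, and Pcdha8 and Pcdhb1 lie below 1 TPM in every library.

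Summed over members, gamma made up most of the clustered protocadherin signal. Its share of the summed TPM was 69.0 to 72.1% in PFOS P1-7, 67.9 to 71.9% in PFOS P8-14 and 68.4 to 70.5% in control. The 3 gamma C genes alone gave 35.8 to 37.2% in PFOS P1-7, 35.6 to 37.5% in PFOS P8-14 and 35.0 to 36.8% in control. The alpha share was 14.1 to 15.6% in PFOS P1-7, 13.9 to 15.8% in PFOS P8-14 and 14.7 to 15.8% in control, and the beta share was 13.9 to 15.5% in PFOS P1-7, 14.2 to 16.3% in PFOS P8-14 and 14.4 to 16.9% in control. The ranges of these shares overlapped between all groups, so the proportions of the 3 clusters did not separate exposed from control libraries.

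The cluster sums themselves were lowest in control replicates 2 and 3. The alpha sum was 90.7, 107 and 95.2 TPM in PFOS P1-7, 93.0, 92.6 and 103 TPM in PFOS P8-14, and 105, 69.3 and 70.8 TPM in control. The beta sum was 89.6, 106 and 96.7 TPM in PFOS P1-7, 94.7, 97.2 and 107 TPM in PFOS P8-14, and 103, 79.4 and 67.6 TPM in control. The gamma sum was 465, 472 and 432 TPM in PFOS P1-7, 481, 421 and 445 TPM in PFOS P8-14, and 458, 322 and 330.2 TPM in control. In every cluster control replicate 1 lay inside the range of the exposed libraries, and control replicates 2 and 3 lay below all 6 of them.

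**Figure D2:**
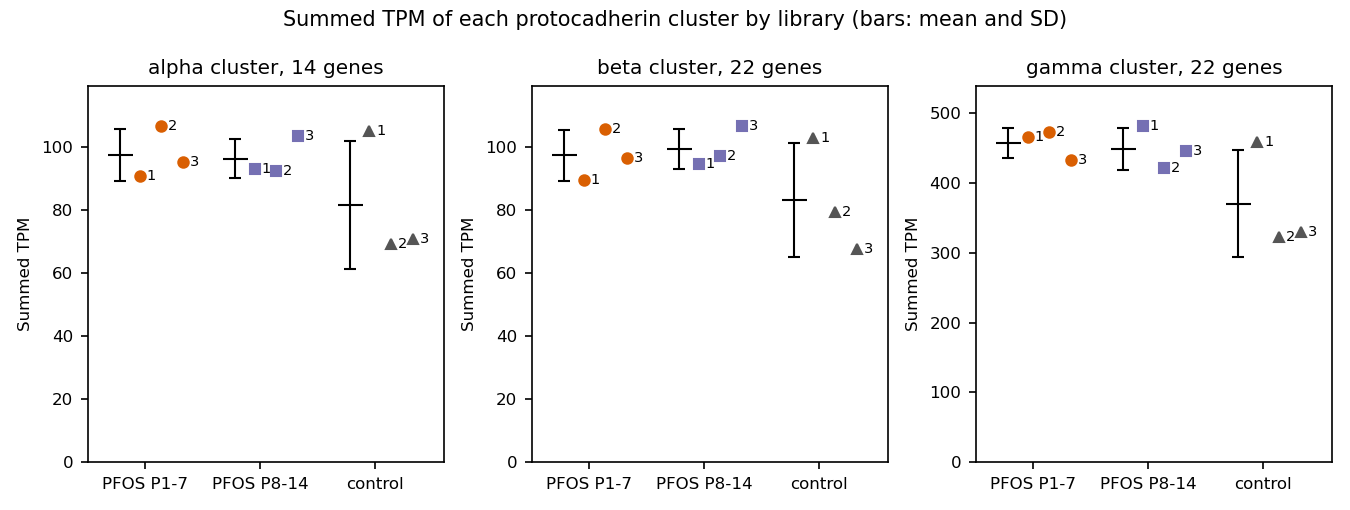
Summed TPM of the alpha, beta and gamma members in each library (marks, numbered by replicate), with group means and SD (bars, n = 3 each), for PFOS P1-7, PFOS P8-14 and control. In each panel control replicates 2 and 3 lie lowest and control replicate 1 lies at the level of the exposed libraries.

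Set against control, the PFOS P1-7 sums differed by 0.28, 0.24 and 0.32 on the log2 scale for alpha, beta and gamma, with pooled SDs of 0.25, 0.23 and 0.21. The PFOS P8-14 sums differed from control by 0.26, 0.28 and 0.30, with SDs of 0.25, 0.23 and 0.21. All these groups overlapped. Without control replicate 1 the 3 differences were 0.47, 0.41 and 0.48 for PFOS P1-7 and 0.46, 0.44 and 0.46 for PFOS P8-14; against control replicate 1 alone they were -0.11, -0.08 and -0.0056 for PFOS P1-7 and -0.13, -0.05 and -0.03 for PFOS P8-14. In bulk tissue, fewer cells of a type and less RNA per cell cannot be told apart. The general neuron marker sum moved with these libraries. It was 6645 to 7568 TPM in the 6 exposed libraries and 7192 TPM in control replicate 1. In control replicates 2 and 3 it was 5596 and 5515 TPM. The narrower neuron lists did not have both of these libraries lowest. In control replicates 1, 2 and 3, dentate granule markers summed to 265, 286 and 195 TPM and pyramidal markers to 614, 586 and 651 TPM. Interneuron markers summed to 2361, 2276 and 2200 TPM. The part of neuron content in the protocadherin sums was not tested.

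After exposure on days 1 to 7, no clustered protocadherin passed the test against control. The adjusted p of limma was below 0.05 for 0 of 56 members, against 0% of the 14336 genes tested, and the smallest among members was 0.21. At an unadjusted p below 0.05, 14 members (25%) were higher and 0 were lower, against 12.5% of all genes higher and 5.79% lower; the 14 were 1 of 13 alpha, 5 of 21 beta and 8 of 22 gamma genes. The median log2 difference over tested members was 0.23 (alpha 0.12, beta 0.16, gamma 0.31), against 0.09 over all genes, and the differences of members ran from -0.05 in Pcdhb5 to 0.69 in Pcdhb8. The median standard error of a member was 0.17, which gives a 95% interval reaching 0.38 to either side. A positive difference was found in 52 of 56 members (92.9%), against 65.5% of all genes.

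The 5 members with the smallest p in this comparison were 3 beta genes and 2 gamma B genes. Pcdhb12 had 7.46, 9.23 and 7.48 TPM in PFOS P1-7 and 6.83, 4.96 and 4.70 TPM in control, a log2 difference of 0.49 (SE 0.16, limma adjusted p = 0.21). Pcdhb8 had 2.47, 2.10 and 2.30 TPM in PFOS P1-7 and 1.32, 0.81 and 1.00 TPM in control, a log2 difference of 0.69 (SE 0.22). Pcdhb4 had 2.40, 2.39 and 2.24 TPM in PFOS P1-7 and 1.49, 1.64 and 1.55 TPM in control, a log2 difference of 0.39 (SE 0.14). In these 3 beta genes, which share no annotated exon, every PFOS P1-7 library was above every control library, control replicate 1 included. They were picked for their p in this comparison, so this separation is not separate evidence. Pcdhgb1 had 12.5, 11.2 and 13.1 TPM in PFOS P1-7 and 10.6, 7.94 and 9.20 TPM in control, and Pcdhgb2 had 10.2, 10.3 and 9.65 TPM in PFOS P1-7 and 9.20, 7.04 and 6.46 TPM in control; each differed by 0.38 on the log2 scale (SE 0.13). The adjusted p of these 5 members ranged up to 0.220. Groups did not overlap in 15 members (26.8%; 3 alpha, 5 beta, 7 gamma), all of them higher in PFOS P1-7, against 12.3% of all genes higher and 6.56% lower.

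After exposure on days 8 to 14, again no member passed. The limma adjusted p was below 0.05 for 0 of 56 members and 0% of all genes, and the smallest among members was 0.426. At an unadjusted p below 0.05, 11 members (19.6%) were higher and 0 were lower, against 6.33% of all genes higher and 4.65% lower; they were 2 alpha, 2 beta and 7 gamma genes. The median log2 difference was 0.26 (alpha 0.12, beta 0.26, gamma 0.27), against 0.06 over all genes, with a range from -0.06 in Pcdha1 to 0.46 in Pcdhgb5. A positive difference was found in 52 of 56 members, against 62.1% of all genes. Groups did not overlap in 11 members (1 alpha, 3 beta, 7 gamma), all higher in PFOS P8-14, against 7.31% of all genes higher and 5.99% lower. Without Pcdhgb8, which entered the test through exposed libraries alone, they were 10 of 55 members, 6 of them gamma genes. The PFOS P8-14 and PFOS P1-7 comparisons use the same 3 control libraries.

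The 5 leading members here came from all 3 clusters, and each had a limma adjusted p of 0.426. Pcdhga4 had 12.3, 11.6 and 13.0 TPM in PFOS P8-14 and 11.3, 7.45 and 7.79 TPM in control, a log2 difference of 0.45 (SE 0.15). Pcdhb22 had 6.46, 7.48 and 6.41 TPM in PFOS P8-14 and 5.67, 5.14 and 4.16 TPM in control, a log2 difference of 0.38 (SE 0.13). Pcdha5 had 6.59, 6.68 and 6.92 TPM in PFOS P8-14 and 5.87, 3.86 and 4.37 TPM in control, a log2 difference of 0.45 (SE 0.16). In each of these genes the lowest exposed library was above control replicate 1, the highest control library. These genes too were picked for their p, so this is not separate evidence. Pcdhb12 had 7.35, 7.17 and 8.96 TPM in PFOS P8-14, against 6.83, 4.96 and 4.70 TPM in control (0.45, SE 0.16), and Pcdhga10 had 13.5, 11.9 and 10.7 TPM in PFOS P8-14, against 10.4, 7.59 and 9.25 TPM in control (0.37, SE 0.13).

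**Figure D3:**
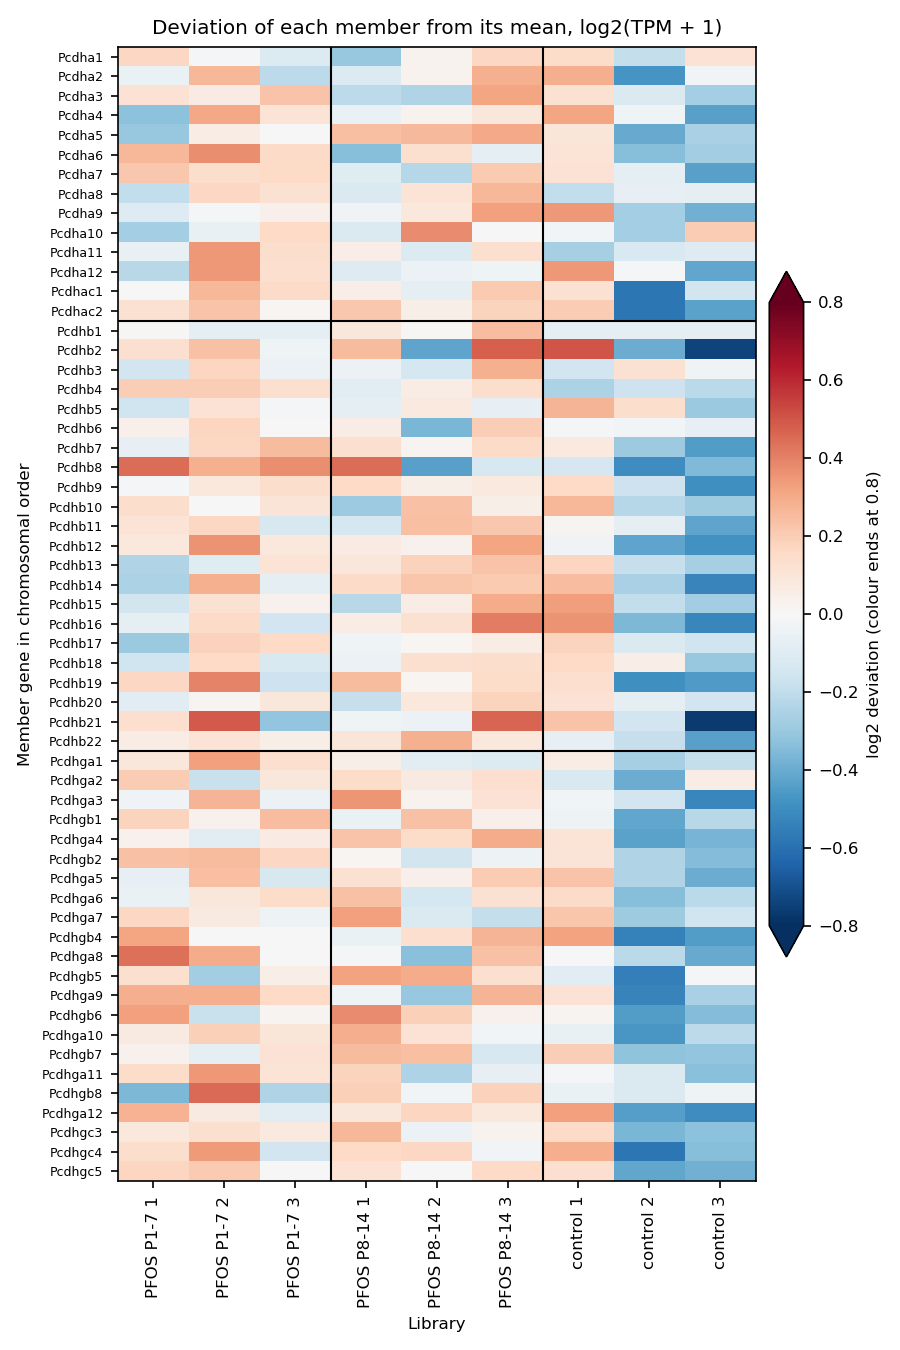
Deviation of each member's log2(TPM + 1) from its own mean over 9 libraries (colour, red above and blue below the mean), with genes in genomic order and libraries in columns by group. Control replicates 2 and 3 are blue in nearly all rows, with median deviations over tested members of -0.27 and -0.32, while control replicate 1 is at 0.12 and the 6 exposed libraries are at 0.04 to 0.17.

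Control replicate 1 was above the mean of the 6 exposed libraries in 32 of the 56 tested members, against 7156 of 14336 genes. Control replicates 2 and 3 were below that mean in 53 and 54 members, against 9233 and 9216 genes. Both were below all 7 other libraries in 25 members (44.6%; 3 of 13 alpha, 7 of 21 beta, 15 of 22 gamma), against the 26.7% of all genes given above. Without control replicate 1, limma called 15 members higher and 0 lower in PFOS P1-7 (26.8%, against 14.1% of all genes higher and 4.47% lower), and 13 higher and 0 lower in PFOS P8-14 (23.2%, against 8.74% higher and 3.4% lower). Limma's array weights, which down-weight libraries far from their group, called 16 members higher and 0 lower in PFOS P1-7, against 15% of all genes higher and 5.32% lower, and 10 higher and 0 lower in PFOS P8-14, against 4.55% and 2.79%. Without control replicate 1, Pcdhac2 differed by 0.63 in PFOS P1-7 (limma adjusted p = 0.00677) and 0.65 in PFOS P8-14 (limma adjusted p = 0.0106), and Pcdhgc5 by 0.53 in PFOS P1-7 (limma adjusted p = 0.00724) and 0.49 in PFOS P8-14 (limma adjusted p = 0.0140). When the dependence on transcript length and GC was also taken out of every library, 1 member was called in PFOS P1-7, Pcdhac2 at 0.32, and 2 in PFOS P8-14, Pcdhac2 at 0.39 and Pcdhga4 at 0.43, against 3.54% of all genes higher and 3.12% lower in PFOS P1-7, and 2.62% higher and 2.59% lower in PFOS P8-14. The median log2 difference over members was 0.38 in both exposed groups without control replicate 1, 0.16 in both without control replicate 2, and 0.15 in PFOS P1-7 and 0.17 in PFOS P8-14 without control replicate 3. Without control replicate 1, 31 of 56 members in PFOS P1-7 and 27 in PFOS P8-14 were higher at an unadjusted p below 0.05. The shares of all genes were 25.1% and 21.5%. Without control replicate 2 these counts were 4 and 3, against 5.91% and 2.46% of all genes. Without control replicate 3 they were 5 in each, against 6.4% and 3.04%. Among the exposed libraries, this count was 6 in PFOS P1-7 without its replicate 2, against 8.5% of all genes. In PFOS P8-14 it was 5, 6 and 7 without its replicates 1, 2 and 3, against 3.35%, 6.05% and 4.4%. Against control replicate 1 alone, the median log2 difference over members was -0.05 in PFOS P1-7 and -0.07 in PFOS P8-14. Over all genes it was 0.01 and -0.02. With control replicate 1 left out, the median over all genes was 0.11 in PFOS P1-7 and 0.09 in PFOS P8-14. With control replicate 2 left out, or control replicate 3, it was 0.07 and 0.04. The member median was thus above 0 with any 1 control library left out, as was that of all genes. Against control replicate 1 alone the member median was slightly below 0.

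With all 9 libraries, the median over members stayed above 0 under other scalings. It was 0.16 for PFOS P1-7 and 0.21 for PFOS P8-14 after median-of-ratios scaling, 0.12 and 0.17 after quantile normalization, and 0.09 and 0.15 after removal of the length and GC trend, where 4 members in PFOS P1-7 and 8 in PFOS P8-14 were higher at an unadjusted p below 0.05, against 5.89% and 4.14% of all genes. Under median-of-ratios scaling, 11 members were higher and 0 lower in PFOS P1-7 at an unadjusted p below 0.05, against 7.2% of all genes higher and 9.85% lower; in PFOS P8-14 the counts were 9 and 0, against 4.11% and 7.05%.

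**Figure D4:**
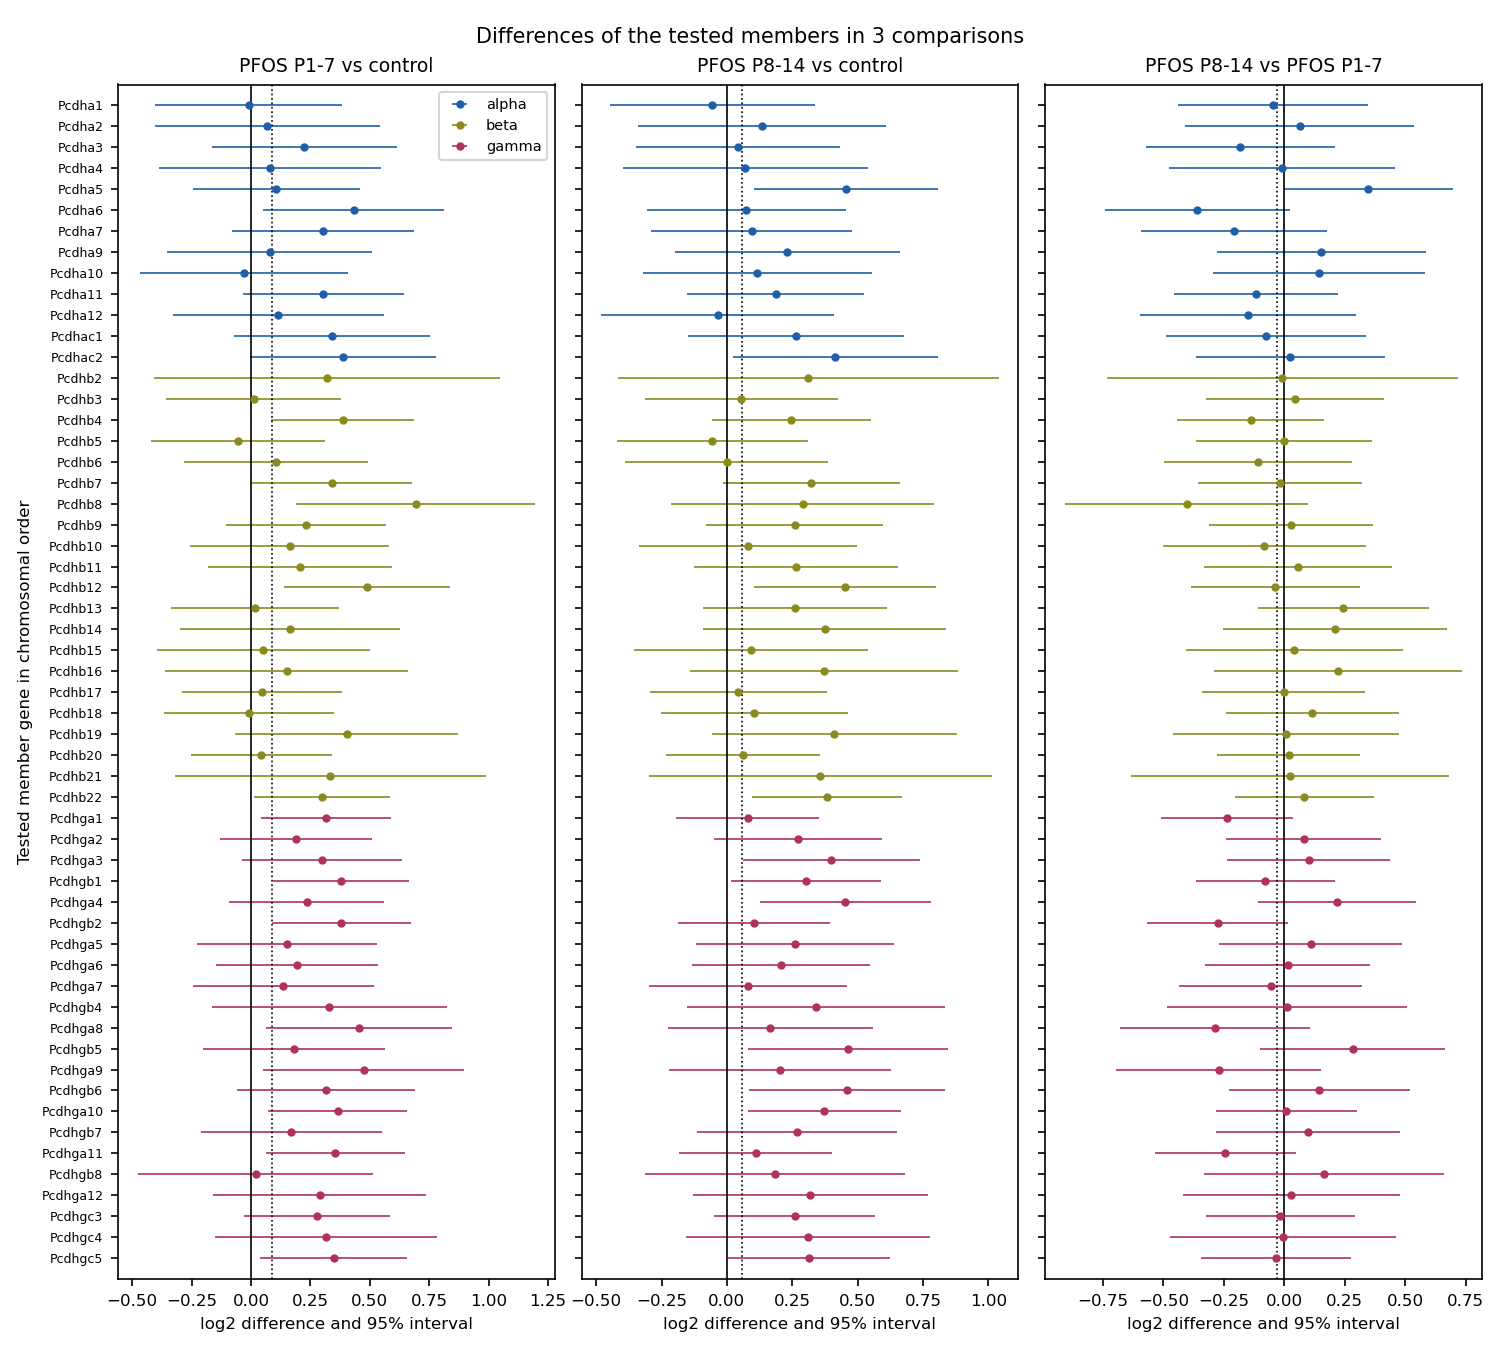
Log2 difference of each tested member with its 95% interval (limma, log2(TPM + 1)) for PFOS P1-7 against control, PFOS P8-14 against control and PFOS P8-14 against PFOS P1-7; the dotted line is the median of all genes tested and colour marks the cluster. Most points lie right of 0 in both comparisons with control, with medians of 0.23 and 0.26, and on either side of 0 between the exposure windows, with a median of 0.0072.

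Between the exposure windows the family as a whole stood level. The log2 difference of the cluster sums, PFOS P8-14 against PFOS P1-7, was -0.02 for alpha, 0.03 for beta and -0.03 for gamma, with pooled SDs of 0.11, 0.11 and 0.08. The limma adjusted p was below 0.05 for 0 of 56 members and 0% of all genes, with a smallest member value of 1.00, and 0 members had an unadjusted p below 0.05, against 1.1% of all genes (0.467% higher and 0.635% lower). Member differences ran from -0.40 to 0.35, with 29 of 56 (51.8%) above 0, against 38.8% of all genes. The 95% intervals reach about 0.38 to either side, so differences of that size in single members are not excluded.

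The 5 members with the smallest p between the windows are given here, and none passed the test. They were picked for that p, so their differences cannot be set against those of the sums. Pcdha5 had 6.59, 6.68 and 6.92 TPM in PFOS P8-14 and 4.21, 5.70 and 5.42 TPM in PFOS P1-7, and differed by 0.35 on the log2 scale (SE 0.16, limma adjusted p = 1.00). Its neighbour Pcdha6 had 3.06, 4.62 and 3.86 TPM in PFOS P8-14 and 5.17, 5.65 and 4.71 TPM in PFOS P1-7, a difference of -0.36 (SE 0.17). Pcdhgb2 had 8.59, 7.59 and 8.22 TPM in PFOS P8-14 and 10.2, 10.3 and 9.65 TPM in PFOS P1-7, a difference of -0.28 (SE 0.13). In these 3 genes the groups did not overlap, and Pcdha5 and Pcdha6 differed in opposite directions. Pcdhga1 and Pcdhga11, both gamma A genes, each differed by -0.24 (SE 0.12 and 0.13). Groups did not overlap in 3 members that were higher in PFOS P8-14 (Pcdha5, Pcdhga4 and Pcdhgb5, against 1.9% of all genes) and 3 that were lower (Pcdha6, Pcdhga1 and Pcdhgb2, against 4.15%).

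The share of a member in its own cluster sum removes what all members of a library have in common, and was added after the data were seen as a description, with no test; genes outside the clusters have no such share, so the counts have no background and nothing is read from them about the members named. Of the 58 members, 5 had a higher share in every PFOS P1-7 library than in any control library (Pcdha6, Pcdhb7, Pcdhb8, Pcdhb12 and Pcdhga9) and 3 a lower one (Pcdhb5, Pcdhb18 and Pcdhga7). In PFOS P8-14 against control these were 5 (Pcdha5, Pcdhb1, Pcdhb7, Pcdhb12 and Pcdhga4) and 4 (Pcdhb5, Pcdhb17, Pcdhga1 and Pcdhgb2). Pcdhb1, listed at 0 in every control library, was kept through exposed libraries alone, so its place in this count follows from the rule.

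Pcdhb12 made up 8.33, 8.71 and 7.74% of the beta sum in PFOS P1-7, 7.76, 7.38 and 8.40% in PFOS P8-14, and 6.63, 6.24 and 6.95% in control. Pcdhb5 made up 4.64, 4.96 and 4.90% of it in PFOS P1-7, 4.74, 5.24 and 4.24% in PFOS P8-14, and 5.78, 6.73 and 5.46% in control. Both genes were chosen because their shares did not overlap. The level of Pcdhb5 itself overlapped between groups, with a log2 difference of -0.05 in PFOS P1-7 and -0.06 in PFOS P8-14. In control replicate 1 the beta sum was 103 TPM, inside the range of the exposed libraries, and the share of Pcdhb5 was 5.78%. How far this share follows the beta sum was not tested. Pcdha5 made up 4.64, 5.35 and 5.70% of the alpha sum in PFOS P1-7, 7.09, 7.22 and 6.69% in PFOS P8-14, and 5.59, 5.57 and 6.17% in control, and so was highest in PFOS P8-14. Pcdhgb2 made up 2.19, 2.18 and 2.23% of the gamma sum in PFOS P1-7, 1.79, 1.80 and 1.85% in PFOS P8-14, and 2.01, 2.18 and 1.96% in control. Pcdhgb2 thus had its lowest shares in the 3 PFOS P8-14 libraries. Alpha and gamma shares depend on how reads of constant exons were divided, and beta shares do so far less.

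**Figure D5:**
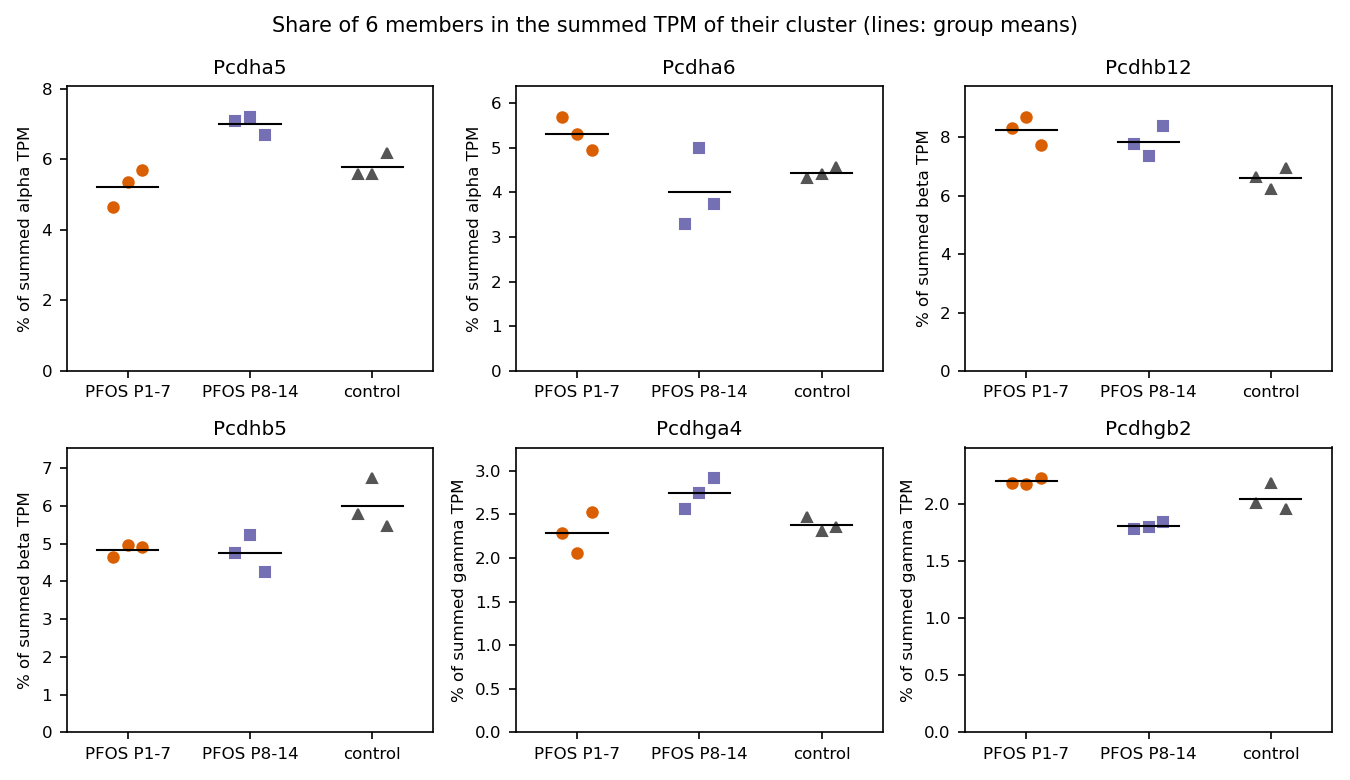
Share (%) of 6 members, chosen after their values were seen, in the summed TPM of their cluster in each library (marks) with group means (lines), for PFOS P1-7, PFOS P8-14 and control. Pcdhb12 is higher and Pcdhb5 lower in all 6 exposed libraries than in the 3 control libraries, while Pcdha5 and Pcdhga4 are highest and Pcdhgb2 is lowest in PFOS P8-14.

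The genes that act on the clusters were examined from lists written from general knowledge. CTCF and cohesin fold the locus so that distant enhancers reach the chosen promoters, and 10 genes of that list were tested. None of the 10 passed the test. At an unadjusted p below 0.05, 8 were higher and 0 lower in PFOS P1-7, against 12.5% of all genes higher and 5.79% lower. In PFOS P8-14, 2 were higher and 0 lower, against 6.33% and 4.65%. The median log2 difference was 0.28 and 0.17, against 0.09 and 0.06 over all genes. Smc3, a core cohesin subunit, had 29.6, 31.1 and 33.1 TPM in PFOS P1-7, 28.5, 26.3 and 28.9 TPM in PFOS P8-14, and 27.1, 21.9 and 21.2 TPM in control. It differed from control by 0.41 in PFOS P1-7 (SE 0.10, limma adjusted p = 0.181) and 0.25 in PFOS P8-14 (limma adjusted p = 0.443), with no overlap in the first of these. Ctcf averaged 44.8 ± 2.85 TPM in PFOS P1-7, 40.1 ± 1.24 TPM in PFOS P8-14 and 38.7 ± 1.54 TPM in control (SD, n = 3 each), a log2 difference of 0.20 (limma adjusted p = 0.231) and 0.05 against control. Between the windows all 10 genes were lower in PFOS P8-14, by a median of -0.10, and Ctcf differed by -0.15 (SE 0.08, limma adjusted p = 1.00).

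Of the genes that silence or demethylate cluster promoters, 14 were tested and 0 passed. At an unadjusted p below 0.05, 4 were higher and 0 lower in PFOS P1-7, against 12.5% of all genes higher and 5.79% lower. In PFOS P8-14, 1 was higher and 0 lower, against 6.33% and 4.65%. The median log2 differences were 0.19 and 0.16, against 0.09 and 0.06 over all genes. Atf7ip, a partner of the histone methyltransferase Setdb1, averaged 35.0 ± 4.24 TPM in PFOS P1-7, 29.2 ± 5.03 TPM in PFOS P8-14 and 22.5 ± 7.33 TPM in control (SD, n = 3 each), and PFOS P1-7 was higher than control by 0.65 on the log2 scale (SE 0.20, limma adjusted p = 0.21). Tet2, which oxidises methylated cytosine, averaged 13.6 ± 0.331 TPM in PFOS P8-14 and 10.2 ± 1.72 TPM in control, a log2 difference of 0.39 (SE 0.12, limma adjusted p = 0.426). Smchd1, which represses clustered protocadherins in mice, averaged 12.9 ± 2.34 TPM in PFOS P1-7, 12.7 ± 1.53 TPM in PFOS P8-14 and 11.3 ± 1.23 TPM in control (SD, n = 3 each), and these groups overlapped. Dnmt3b, which methylates the promoters early in mouse development, was too low for the test, at 0.843 ± 0.166 TPM in PFOS P1-7, 0.710 ± 0.0755 TPM in PFOS P8-14 and 0.707 ± 0.0907 TPM in control.

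Partners that signal for or cleave the proteins numbered 23, all tested, and 0 passed. At an unadjusted p below 0.05, 8 were higher and 1 lower in PFOS P1-7, against 12.5% of all genes higher and 5.79% lower. In PFOS P8-14, 6 were higher and 0 lower, against 6.33% and 4.65%. Prkca, the alpha isoform of protein kinase C, had 102, 95.1 and 93.8 TPM in PFOS P1-7, 85.2, 88.7 and 103 TPM in PFOS P8-14, and 78.7, 73.6 and 79.5 TPM in control. Both exposed groups were above all control libraries, with log2 differences of 0.33 (SE 0.09, limma adjusted p = 0.183) and 0.25 (SE 0.09, limma adjusted p = 0.426). With the length and GC trend removed these were 0.0579 and 0.0358, and without control replicate 1 as well they turned to -0.0590 and -0.0811. Ptk2, the focal adhesion kinase that gamma protocadherins inhibit, averaged 64.4 ± 4.80 TPM in PFOS P1-7, 58.4 ± 3.23 TPM in PFOS P8-14 and 56.4 ± 3.25 TPM in control, and differed by -0.14 (SE 0.08) between the windows.

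The single-gene protocadherins and giant cadherins elsewhere in the genome were the closest relatives measured, and 18 of 21 listed genes were tested. At an unadjusted p below 0.05, 6 were higher and 0 lower in PFOS P1-7, against 12.5% of all genes higher and 5.79% lower. In PFOS P8-14, 2 were higher and 0 lower, against 6.33% and 4.65%. In both comparisons 0 passed the test. Their median log2 difference was 0.35 in PFOS P1-7 and 0.26 in PFOS P8-14, beside 0.23 and 0.26 in the clustered family, so the positive values were not confined to the clusters; the difference between the lists was not tested. Pcdh9 averaged 56.8 ± 2.46 TPM in PFOS P1-7, 55.96 ± 4.6 TPM in PFOS P8-14 and 43.6 ± 6.18 TPM in control (SD, n = 3 each), a log2 difference of 0.38 and 0.36. Pcdh18 had the smallest p between the windows, at 2.07 ± 0.133 TPM in PFOS P8-14 and 2.70 ± 0.169 TPM in PFOS P1-7, or -0.27 on the log2 scale (SE 0.18).

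Genes next to the clusters on chromosome 18 had medians slightly below 0, where those of all genes were above 0. Their difference from the members was not tested. Of 10 tested neighbours, 0 passed the test. At an unadjusted p below 0.05, 1 was higher and 1 lower in PFOS P1-7, against 12.5% of all genes higher and 5.79% lower. In PFOS P8-14, 1 was higher and 2 were lower, against 6.33% and 4.65%. The median log2 differences were -0.09 in PFOS P1-7, with a range from -0.32 to 0.27, and -0.04 in PFOS P8-14. Over all genes they were 0.09 and 0.06. A positive difference was found in 2 and 3 of the 10 neighbours, against 65.5% and 62.1% of all genes. Ik, a splicing factor gene before the alpha cluster, averaged 149 ± 5.30 TPM in PFOS P1-7, 147 ± 5.01 TPM in PFOS P8-14 and 123 ± 7.60 TPM in control, a log2 difference of 0.27 and 0.25 (limma adjusted p = 0.182 and 0.426). Rell2, beyond the gamma cluster, averaged 107 ± 11.9 TPM in PFOS P1-7, 118 ± 5.56 TPM in PFOS P8-14 and 133 ± 3.47 TPM in control, a log2 difference of -0.32 and -0.18. Taf7, a general transcription factor gene between the beta and gamma clusters, averaged 6.48 ± 0.383 TPM in PFOS P1-7, 6.81 ± 0.314 TPM in PFOS P8-14 and 7.02 ± 0.941 TPM in control, and its groups overlapped.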

How the data were processed

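Bulk RNA sequencing of 9 hippocampus samples, 3 per group, was analysed from the table of TPM (a length-scaled abundance) that the authors deposited. Per the labels, total RNA and a stranded mRNA kit were used. Reads were handled with RSEM 1.3.3 and STAR 2.5.3a on mm10, beside fastp 0.21.0 and bcl2fastq, per the submitters' processing notes; the gene annotation is not given in the sources used here. The deposited TPM values have 2 decimals and every column sums to 1000000 within rounding, so the depth of each library is unknown and no counting error was computed.

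Members and gene lists were chosen with earlier results of these data known. Genes at 1 TPM or more in at least 3 of 9 libraries were tested, 14336 in all, on log2(TPM + 1) with limma 3.58.1 in R 4.3.3. A single model over the 3 groups, with variances moderated towards a trend on mean level, gave two-sided p-values, adjusted by Benjamini-Hochberg over all tested genes, with 0.05 as the threshold. Cluster sums, shares and counts of groups that do not overlap are descriptions. Exons, sizes and positions came from RefSeq and GENCODE annotation of mm10, with 57 of the 58 members found in the GENCODE transcripts; lengths and GC contents were found for 93.9% of tested genes. The members named in the text were the 5 C-type genes, the 3 highest and the lowest of each other class, the 5 members with the smallest p in each comparison, the gene with the smallest p in each pathway list, and Ctcf, Smchd1, Dnmt3b and Taf7. Other members named, such as those at the end of a range or in a count of 5 or fewer, were chosen after their values were seen. Alternatives covered the pseudocount, the filter, the scaling, weights, covariates, a replicate block and leaving out each library. No 2 libraries held the same values, and no member had the values of another symbol.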

Additional observations from a re-analysis of the deposited data

How the results depend on the processing

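With all 9 libraries, limma called 0 members in each comparison under every pseudocount, filter, scaling, covariate, moderation and subset of groups that was run with equal weights. Array weights called 16 members and 2914 genes in PFOS P1-7 against control and 10 members and 1053 genes in PFOS P8-14 against control. No filter on low values gave 0 members and 5, 3 and 2 genes in the 3 comparisons. Leaving out each library in turn gave 0 to 15 members and 0 to 2658 genes called in PFOS P1-7 against control, 0 to 13 members and 0 to 1741 genes in PFOS P8-14 against control, and 0 members and 0 genes between the windows; the highest values are those without control replicate 1. Leaving out control replicate 1 and also removing the trend on length and GC content, an alternative chosen after seeing the data, gave 1 and 2 members and 956 and 748 genes called, and Prkca turned to -0.0590 in PFOS P1-7 and -0.0811 in PFOS P8-14. Without control replicates 2 and 3, an alternative chosen after seeing the data in which the lone control is assumed to vary like the other groups, the member medians were -0.0478 and -0.0704, and the differences of the sums were -0.11 and -0.13 for alpha, -0.0847 and -0.0521 for beta, and -0.0056 and -0.0314 for gamma, in PFOS P1-7 and PFOS P8-14. A pseudocount of 5 gave member medians of 0.14 and 0.13. The causes were not tested.

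Whether the replicate numbers pair the samples is not known. Residuals of libraries with the same number correlated from -0.47 to 0.53, and those with different numbers from -0.60 to 0.67. These ranges overlap and cannot decide it. With the replicate block, 0 members were called in each comparison, with smallest member adjusted p-values of 0.139, 0.237 and 1.00, and 0 were called with the block plus removal of the length and GC trend. Without depth, counting error cannot be given for low members such as Pcdha8 and Pcdhb1, and 3 samples a group leave a 95% interval of 0.38 to either side for a typical member.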
